A study of Populus ussuriensis with 20 samples.

Results

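LHY1 (Potri.002G180800) and LHY2 (Potri.014G106800) are the copies in poplar of the clock gene LATE ELONGATED HYPOCOTYL. They were taken by identifier from a table of 34699 genes, and both of these 2 genes passed the filter on low values that left 24934 genes for testing. The table pairs no identifier with a gene name, so the names LHY1 and LHY2 are those in use for these poplar genes. The rule uses the identifiers alone and no measured value. Both genes and the tests, that of variation with time included, were nevertheless chosen with earlier results of these data known.

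RNA sequencing was done on total RNA of basal ends of stem cuttings of Populus ussuriensis (Ussuri poplar), which held root primordia and the tissue around them. The cuttings came from plants that were 3 weeks old and had stood for 5 days on solid Woody Plant Medium, in a room at 25 °C with 16 h of light and 8 h of darkness. They then went into liquid medium of the same kind, modified to hold 10 µM KH2PO4 (low phosphate) or 200 µM KH2PO4, the level it was compared with, and the basal ends were collected at 2, 4, 8, 12 and 24 h. Each of the 10 groups had 2 libraries, numbered in the labels without a statement that they came from separate plants, so p-values measure only the spread between these libraries, which may be technical. The clock hour of the transfer is not given in the sources used here, and no sample from before it was analysed here. The tissue holds several cell types, and fewer cells of a type cannot be told apart from less RNA per cell.

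LHY encodes a MYB transcription factor of the plant circadian clock. In Arabidopsis, LHY and its relative CCA1 are transcribed most strongly around dawn and repress genes expressed in the evening, such as TOC1, whose products feed back on them. In hybrid aspen, LHY1 and LHY2 also act in the clock, and trees with lowered expression of both were altered in seasonal growth arrest and in freezing tolerance. No promoter or protein sequence of these genes was used here, and the other clock genes could not be listed because the table gives identifiers without names.

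Library totals, worked out from the steps between low FPKM values, lay between 14053678 and 15764765 fragments. FPKM is the number of fragments, scaled by the length of the gene and by the total of fragments in the library. The replicates of a group differed across genes with an SD of the log2 differences that was smallest in the 200 µM group at 12 h (0.229) and greatest in the 10 µM group at 8 h (0.430). In none of the 10 groups did the replicates agree within sampling noise (chi-square of 4.15 or more divided by its degrees of freedom), and no libraries were merged. This does not show that they came from separate plants.

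Both genes were detected in every library. LHY1 was counted with 519 to 1421 fragments per library over a gene model of 3270 bases, and LHY2 with 648 to 2741 fragments over 4193 bases. Counting error alone gave 95% exact Poisson intervals of at most -8.42% to +8.99% around a library's value for LHY1 and of -7.55% to +8.00% for LHY2. Averaged over the 20 libraries, LHY1 stood at 17.4 FPKM and LHY2 at 23.1 FPKM, which placed them at the 70.8 and 77.4 percentile of the tested genes, whose median was 8.73 FPKM. Their highest library exceeded their lowest by 2.65-fold for LHY1 and 4.17-fold for LHY2. The SD of the log2(FPKM + 1) values over all libraries was 0.407 for LHY1 and 0.577 for LHY2, against a median of 0.186 for tested genes.

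LHY1 alternated between lower and higher levels along the course. At 10 µM KH2PO4 its libraries, replicate 1 before replicate 2, measured 16.98 and 13.5 FPKM at 2 h, 23.7 and 20.7 FPKM at 4 h, 17.4 and 17.8 FPKM at 8 h, 26.4 and 22.6 FPKM at 12 h, and 11.7 and 11.9 FPKM at 24 h. At 200 µM they measured 15.4 and 10.5 FPKM at 2 h, 19.8 and 27.9 FPKM at 4 h, 10.9 and 10.7 FPKM at 8 h, 20.0 and 17.4 FPKM at 12 h, and 18.3 and 15.1 FPKM at 24 h. At 10 µM each time thus lay wholly above or below the time before it, in the order up, down, up, down. At 200 µM the same held up to 12 h, while the libraries at 24 h overlapped those at 12 h.

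LHY2 followed the same course with wider swings. At 10 µM its libraries measured 22.6 and 15.4 FPKM at 2 h, 32.1 and 25.5 FPKM at 4 h, 18.8 and 24.9 FPKM at 8 h, 42.6 and 32.7 FPKM at 12 h, and 13.7 and 13.2 FPKM at 24 h. At 200 µM they measured 19.4 and 13.7 FPKM at 2 h, 31.1 and 37.9 FPKM at 4 h, 10.2 and 11.1 FPKM at 8 h, 30.04 and 29.2 FPKM at 12 h, and 20.5 and 16.6 FPKM at 24 h. The 4 steps up, down, up and down were free of overlap at both phosphate levels.

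**Figure D1:**
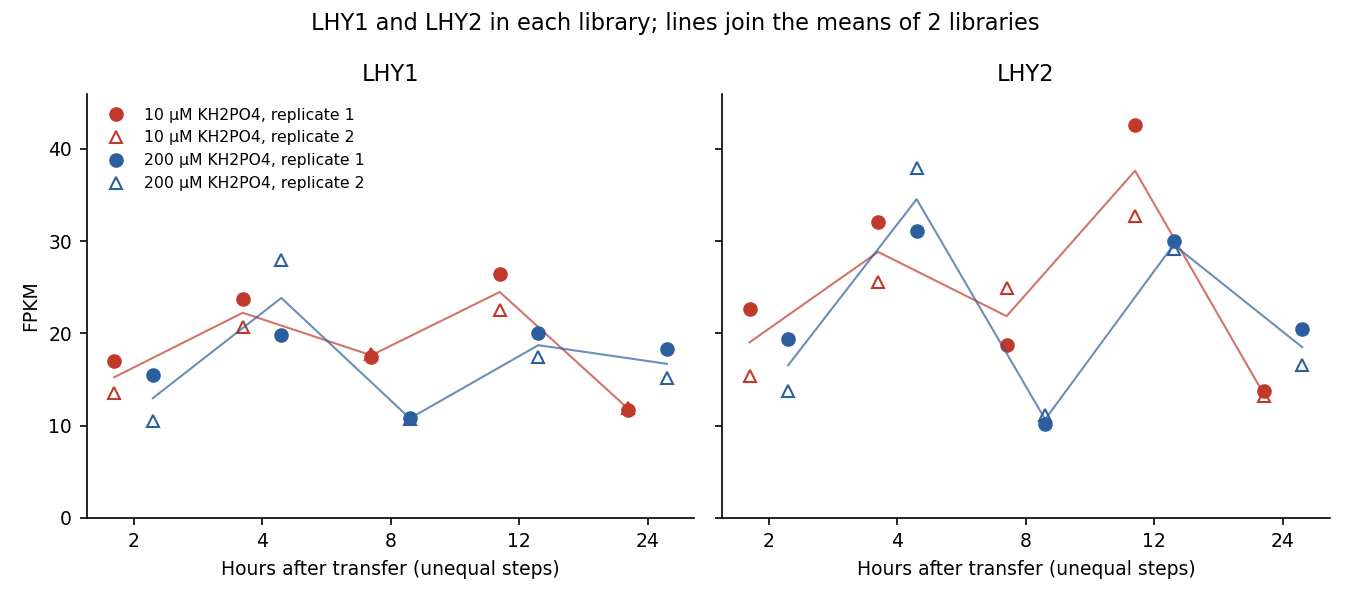
FPKM (vertical axis) of LHY1 (left) and LHY2 (right) in each of the 20 libraries against hours after transfer, drawn at equal spacing; red, 10 µM KH2PO4; blue, 200 µM KH2PO4; filled circles, replicate 1; open triangles, replicate 2; lines join the means of 2 libraries. Averaged over both levels, both genes are higher at 4 h and 12 h than at 2 h, 8 h and 24 h. For LHY1 at 200 µM the libraries at 12 h and 24 h overlap. At 8 h the libraries at 10 µM lie above those at 200 µM in both genes.

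Libraries collected at 4 h and 12 h were set apart from the others by LHY2 alone of the pair. Its 8 libraries at these times measured 25.5 FPKM or more, and its 12 libraries at 2, 8 and 24 h measured 24.9 FPKM or less. Only 2 of 24934 tested genes (0.00802%) were divided in this way, a division chosen after the values of LHY2 were seen. The other gene, Potri.011G142000, also named after its values were seen, had a narrow range of 8.92 to 10.6 FPKM at 4 and 12 h against 7.40 to 8.87 FPKM at the other times. For LHY1 the libraries overlapped slightly, with a lowest value of 17.4 FPKM at 4 or 12 h (200 µM, 12 h) and a highest value of 18.3 FPKM elsewhere (200 µM, 24 h).

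Few genes showed a course of 4 steps, up, down, up and down, without overlap of neighbouring times. At 10 µM it was shown by 133 of 24934 genes (0.533%), LHY1 and LHY2 among them. At 200 µM it was shown by 511 genes (2.05%), of which LHY2 was a member and LHY1 was not. At both levels it was shown by 10 genes (0.0401%), again with LHY2. These counts describe a pattern first seen in LHY1 and LHY2 themselves and are no test of it.

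The order of the 10 groups was similar for both genes. For LHY1 the means ran from 24.5 ± 2.7 FPKM at 10 µM and 12 h, through 23.8 ± 5.8 (200 µM, 4 h), 22.2 ± 2.1 (10 µM, 4 h), 18.7 ± 1.8 (200 µM, 12 h), 17.6 ± 0.23 (10 µM, 8 h), 16.7 ± 2.2 (200 µM, 24 h), 15.2 ± 2.5 (10 µM, 2 h), 13.0 ± 3.5 (200 µM, 2 h) and 11.8 ± 0.13 (10 µM, 24 h), to 10.8 ± 0.12 FPKM at 200 µM and 8 h (SD, n = 2 each). Of the neighbours in this order, only 10 µM at 4 h with 200 µM at 12 h, and the last 2 groups, had libraries that did not overlap. For LHY2 the means ran from 37.6 ± 7.0 FPKM at 10 µM and 12 h, through 34.5 ± 4.8 (200 µM, 4 h), 29.6 ± 0.61 (200 µM, 12 h), 28.8 ± 4.7 (10 µM, 4 h), 21.9 ± 4.3 (10 µM, 8 h), 19.0 ± 5.1 (10 µM, 2 h), 18.5 ± 2.8 (200 µM, 24 h), 16.5 ± 4.0 (200 µM, 2 h) and 13.5 ± 0.35 (10 µM, 24 h), to 10.7 ± 0.67 FPKM at 200 µM and 8 h (SD, n = 2 each). Here the neighbours that did not overlap were 200 µM at 4 h and at 12 h, 10 µM at 4 h and at 8 h, 200 µM at 2 h with 10 µM at 24 h, and this last group with 200 µM at 8 h. Replicates differed by more than counting error (chi-square, 1 degree of freedom) in 7 of the 10 groups for each gene.

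The abundance of both genes varied with time. In limma's F test over the 5 times, on the mean of both phosphate levels, the Benjamini-Hochberg adjusted p was 0.00314 for LHY1 and 0.000495 for LHY2, in a comparison that called 3632 of 24934 genes (14.6%). The highest and lowest time means were 0.69 apart on the log2 scale for LHY1 and 1.07 apart for LHY2, at the 89.2 and 96.5 percentile of tested genes, whose median range was 0.29. Averaged over both levels, LHY2 measured 17.8 ± 4.0 FPKM at 2 h, 31.7 ± 5.1 FPKM at 4 h, 16.3 ± 6.9 FPKM at 8 h, 33.6 ± 6.1 FPKM at 12 h and 16.0 ± 3.3 FPKM at 24 h (SD, n = 4 each). LHY1 measured 14.1 ± 2.8, 23.0 ± 3.7, 14.2 ± 3.9, 21.6 ± 3.8 and 14.3 ± 3.1 FPKM at the same times (SD, n = 4 each).

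LHY2 passed the threshold in 3 of its 4 steps and LHY1 in 2. At 8 h against 4 h both fell, LHY2 by 0.99 ± 0.15 (log2, SE) and LHY1 by 0.69 ± 0.13, with limma's adjusted p of 0.0183 and 0.044, in a comparison that called 60 genes (0.241%), 34 of them lower (0.136%). At 12 h against 8 h LHY2 rose by 1.07 ± 0.15, a 2.11-fold difference (adjusted p 0.0169), and LHY1 had a difference of 0.59 ± 0.13 (adjusted p 0.0894), with 27 genes called (0.108%), 14 of them higher (0.0561%). At 24 h against 12 h both fell, LHY2 by 1.03 ± 0.15 and LHY1 by 0.57 ± 0.13 (adjusted p 0.00517 and 0.0417), with 366 genes called (1.47%), 105 of them lower (0.421%). At 4 h against 2 h neither passed. The differences were 0.81 ± 0.15 for LHY2 and 0.68 ± 0.13 for LHY1, with limma's adjusted p of 0.0773 and 0.087, and 12 genes were called (0.0481%).

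The calls of LHY1 changed with the library left out more often than those of LHY2. Leaving out a library of a time outside a comparison left the difference of LHY1 unchanged (-0.69 at 8 h against 4 h, -0.57 at 24 h against 12 h). Only the shared estimate of spread and the adjustment over all genes could then move the call of LHY1. Its fall at 24 h against 12 h missed the threshold when any of 12 libraries was left out, with log2 differences of -0.64 to -0.51 and limma's adjusted p of 0.0544 to 0.146. In these fits 64 to 329 genes were called in that comparison, against 366 with all libraries. The libraries were both replicates of 3 groups at 10 µM (4, 12 and 24 h) and of 3 groups at 200 µM (8, 12 and 24 h). Its fall at 8 h against 4 h missed it without any of the same 12 libraries, or without replicate 2 of the 200 µM group at 4 h, with log2 differences of -0.73 to -0.57, adjusted p of 0.0518 to 0.235 and 0 to 78 genes called.

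For LHY2 the fall at 24 h against 12 h passed in all 20 such fits. Its fall at 8 h was lost in 4 of them (adjusted p 0.0538 to 0.135, with 0 to 2 genes called), which left out either 4 h library of the low (10 µM) level, the second 4 h library of the high (200 µM) level, or the first 8 h library of the high level. Its rise at 12 h was lost in 6 (adjusted p 0.0597 to 0.144, with 0 to 9 genes called), which left out the first 8 h or 12 h library of the low level or any 8 h or 12 h library of the high level. Conversely, the difference at 4 h against 2 h passed for both genes without either 8 h library of the low level or the first 2 h library of the high level, in fits that called 100 genes (either 8 h library left out) and 34 genes, against 12 with all libraries. For LHY2 it also passed without the first 2 h library of the low level, where 19 genes were called (adjusted p 0.0357 to 0.0476 over these fits). LHY1 passed at 12 h against 8 h in the fit without the second 8 h library of the low level (adjusted p 0.0287), in which 1763 genes were called in that comparison, against 27 with all libraries.

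**Figure D2:**
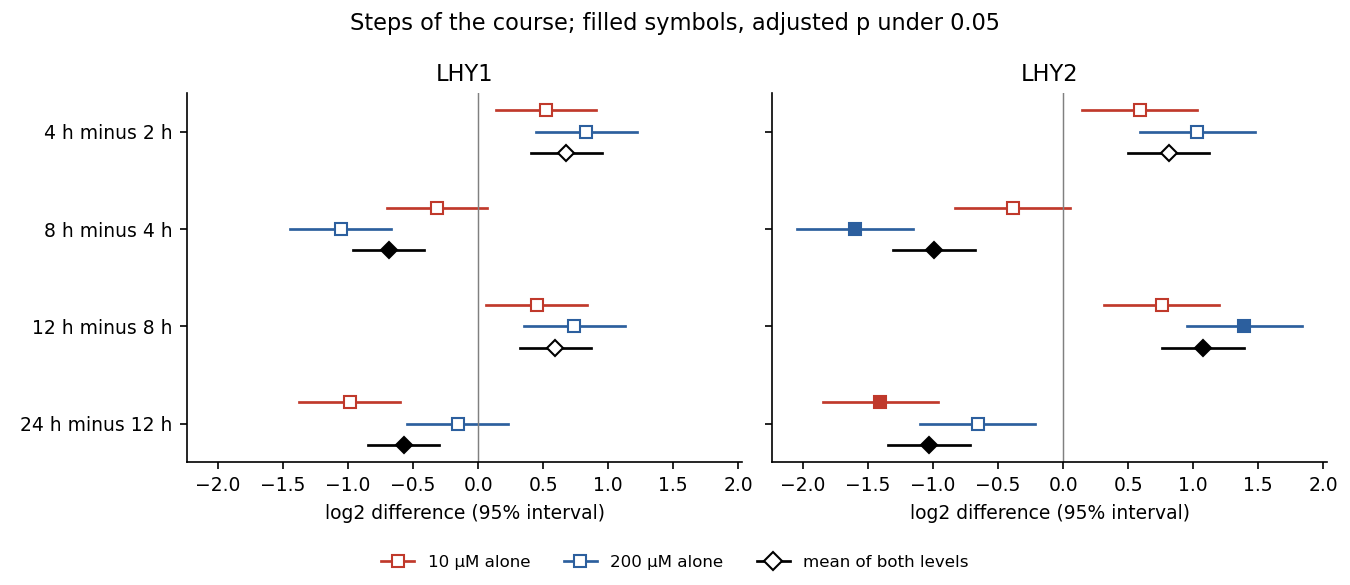
Log2 differences (horizontal axis) between successive times for LHY1 (left) and LHY2 (right), with 95% intervals from limma; red squares, 10 µM KH2PO4 alone; blue squares, 200 µM alone; black diamonds, mean of both levels; filled symbols passed the adjusted threshold of 0.05. The signs alternate for both genes and at both levels, and at 8 h against 4 h the estimates at 200 µM are the farther from 0.

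Taken at each phosphate level alone, the swing at 8 h was clearest at 200 µM. There LHY2 fell at 8 h against 4 h by 1.60 ± 0.21 (log2, SE), with the smallest p of all 24934 genes (limma, adjusted p 0.0246, 18 genes called, 0.0722%, of which 13 lower, 0.0521%). It rose at 12 h against 8 h by 1.39 ± 0.21, a 2.62-fold difference (adjusted p 0.0422, 13 genes called, 0.0521%, of which 8 higher, 0.0321%). At 10 µM the corresponding differences of LHY2 were -0.39 ± 0.21 and 0.76 ± 0.21, with limma's adjusted p of 0.72 and 0.915 and 0 genes called (0%). Over all genes 1861 and 1225 had an unadjusted p under 0.05 in these comparisons. At 24 h against 12 h the larger difference was at 10 µM, where LHY2 fell by 1.41 ± 0.21 (adjusted p 0.0406, 5 genes called, 0.0201%, of which 3 lower, 0.012%). It was -0.66 ± 0.21 at 200 µM (adjusted p 0.184, 54 genes called, 0.217%). The difference between levels in the step to 8 h from 4 h was 1.21 ± 0.29 for LHY2 and 0.74 ± 0.26 for LHY1, each with an adjusted p of 0.998, and that in the step to 24 h was not tested on its own. LHY1 passed at no step within a level, and its nearest was the difference of -1.06 ± 0.18 at 8 h against 4 h at 200 µM (adjusted p 0.0536).

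The 5 times, placed on a light and dark cycle of 24 h by hours after transfer, did not follow a single rise and fall. This placing assumes that all cuttings were transferred at the same clock hour and that the cycle went on afterwards. On that basis the collections at 24 h and 2 h lay 2 h apart. Between them LHY1 differed by 0.01 (log2, 95% interval -0.26 to 0.29) and LHY2 by -0.14 (-0.45 to 0.17), and neither passed, with limma's adjusted p of 0.963 and 0.578. In the same comparison 3064 genes (12.3%) were called. The collections at 12 h and 4 h lay 8 h apart, and LHY1 differed between them by -0.09 (-0.37 to 0.18) and LHY2 by 0.08 (-0.23 to 0.39), with adjusted p of 0.714 and 0.788 and 1791 genes called (7.18%). The collections at 8 h lay between these, 4 h from each, with LHY2 lower than at either. Arranged on the cycle under this assumption, the 5 times held a pair of high means, at 4 h and 12 h, with low means at 8 h and at 24 to 2 h. At 10 µM alone neither gene passed at 8 h against 4 h or at 12 h against 8 h (limma, adjusted p 0.72 to 0.986). On the mean of both levels LHY1 did not pass at 12 h against 8 h (limma, adjusted p 0.0894). Nothing was collected between 12 h and 24 h, and the hour at which the lights came on is not given in the sources used here, so no time could be assigned to morning or evening.

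The course of these genes was little related to the main order of the libraries. The first principal component of all tested genes held 28.0% of the variance, and over the 20 libraries it correlated with LHY1 at r = -0.03 and with LHY2 at r = 0.05. The second held 14.9%, with r = -0.20 and r = -0.33. These correlations are descriptions, since the points share libraries and the components include both genes.

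No difference between phosphate levels in either gene passed the adjusted threshold, at any time or over the whole course. Averaged over the 5 times, the log2 difference between 10 and 200 µM was 0.14 ± 0.08 for LHY1 (95% interval -0.03 to 0.32) and 0.16 ± 0.09 for LHY2 (-0.04 to 0.36). limma's adjusted p was 0.75 and 0.768, and 11 genes were called (0.0441%). Without the 4 libraries at 8 h the values were 0.02 for LHY1 and -0.04 for LHY2. The differences at the remaining times had opposite signs and offset each other, and no other time was left out as a whole. At 2 h the differences were 0.23 ± 0.18 for LHY1 and 0.19 ± 0.21 for LHY2, and at 4 h they were -0.08 ± 0.18 and -0.26 ± 0.21. The libraries of the levels overlapped at both these times. limma called 0 genes at 2 h and 0 at 4 h, where 492 and 895 had an unadjusted p under 0.05, and limma's voom method, on fragments recovered from the FPKM values, also called 0 at each.

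At 8, 12 and 24 h the libraries of the phosphate levels did not overlap in either gene, which is common among tested genes with 2 libraries in a group. At 8 h both libraries at 10 µM lay above both at 200 µM, as in 14.4% of tested genes, so the separation itself is no result about LHY1 and LHY2. LHY1 measured 17.4 and 17.8 FPKM at 10 µM against 10.9 and 10.7 FPKM at 200 µM, a log2 difference of 0.66 ± 0.18 (95% interval 0.27 to 1.05). LHY2 measured 18.8 and 24.9 FPKM against 10.2 and 11.1 FPKM, a difference of 0.96 ± 0.21 (0.51 to 1.40). The unadjusted p was 0.00258 for LHY1 and 0.000377 for LHY2 in limma's fit, and after Benjamini-Hochberg adjustment over all genes it was 0.73 and 0.692. With limma 0 genes passed at that time (0%), and 1485 had an unadjusted p under 0.05. With limma's voom method on recovered fragments 0 passed.

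At 12 h the libraries at 10 µM were again the higher, as in 18.8% of tested genes. The difference was 0.37 ± 0.18 for LHY1 and 0.32 ± 0.21 for LHY2, each with limma's adjusted p of 0.999. At 24 h they were the lower, as in 21.5% of tested genes, with differences of -0.46 ± 0.18 for LHY1 and -0.42 ± 0.21 for LHY2 (adjusted p 0.892 for each). With limma 0 genes passed at 12 h and 0 at 24 h, while 1132 and 1272 had an unadjusted p under 0.05. With voom 0 passed at 12 h and 4 at 24 h. The differences at these times spread over 1.12 (log2) for LHY1 and 1.38 for LHY2, and limma's F test for their variation with time gave an unadjusted p of 0.00624 and 0.0027 and an adjusted p of 1 for both. It called 0 genes (0%), as voom did, and 751 had an unadjusted p under 0.05.

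**Figure D3:**
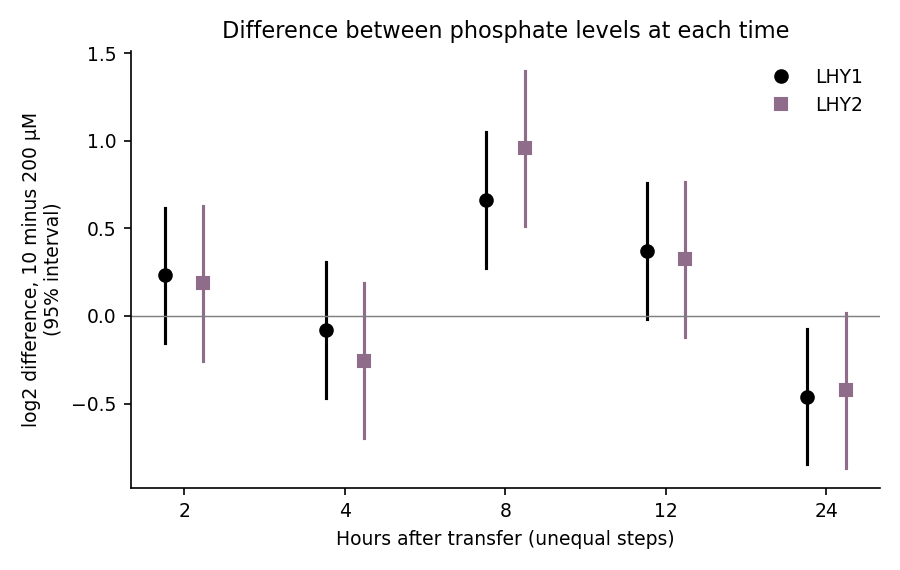
Log2 difference between 10 and 200 µM KH2PO4 (vertical axis, 95% intervals from limma) at each time after transfer, drawn at equal spacing; black circles, LHY1; mauve squares, LHY2. The intervals lie above 0 at 8 h for both genes and below 0 at 24 h for LHY1, and no difference passed after adjustment over all genes.

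The 4 libraries at 8 h were not alike in the rest of the transcriptome. Their place between 4 h and 12 h was read from the 2477 genes called between these times in a fit without the libraries at 8 h, as the median over genes on a scale that is 0 at the mean of 4 h and 1 at the mean of 12 h. At 10 µM replicate 1 lay at 0.18 and replicate 2 at 0.89. At 200 µM replicate 1 lay at 0.60 and replicate 2 at 0.31. Replicates thus differed more along this scale than the phosphate levels did.

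LHY1 at 8 h was nearly equal between the replicates of each phosphate level. Replicate 1 stood at 0.981 of replicate 2 at 10 µM and at 1.02 of it at 200 µM, within counting error in both groups. For LHY2 replicate 1 stood at 0.916 of replicate 2 at 200 µM, and at 10 µM replicate 1 stood at 0.754 of replicate 2, beyond counting error. The library placed nearest to 12 h, replicate 2 at 10 µM, had the highest LHY2 of the 4, while its LHY1 was near that of replicate 1. LHY1 and LHY2 could not be placed on the scale themselves, because their means at 4 h and 12 h hardly differed. Relative to the mean at 12 h, LHY2 was lower in all 4 libraries, with log2 differences of -0.79 and -0.40 at 10 µM and of -1.61 and -1.495 at 200 µM.

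**Figure D4:**
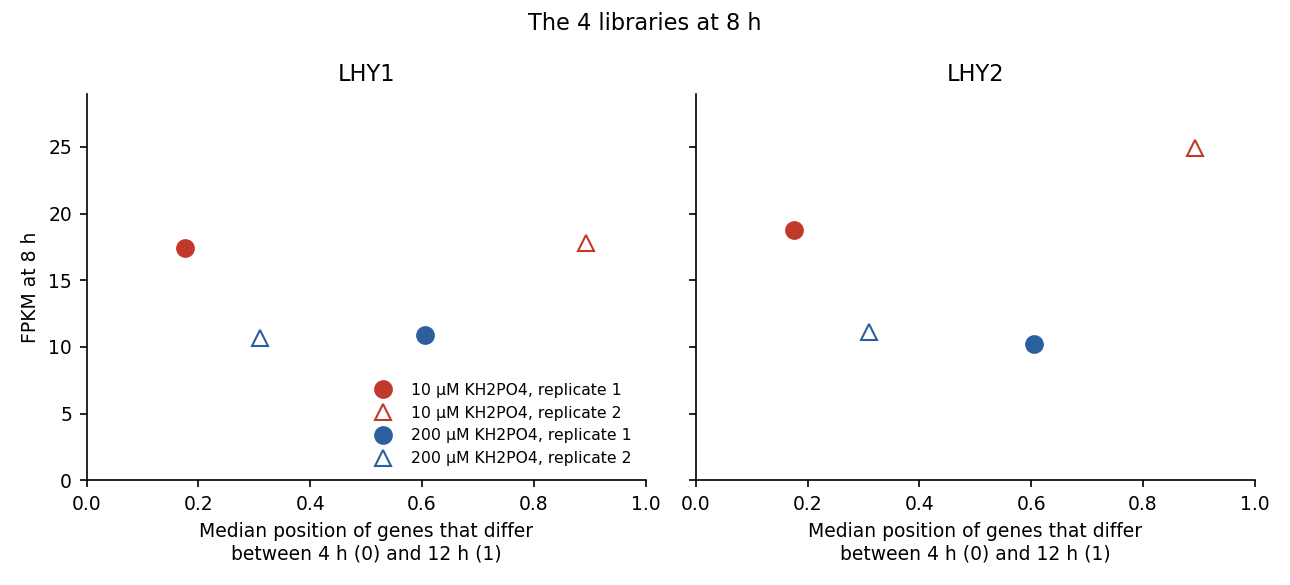
FPKM of LHY1 (left) and LHY2 (right) in the 4 libraries at 8 h (vertical axis) against the library's median position over 2477 genes on a scale from the mean of 4 h (0) to the mean of 12 h (1); red, 10 µM KH2PO4; blue, 200 µM KH2PO4; filled circles, replicate 1; open triangles, replicate 2. The red points lie above the blue ones in each panel, with 2 libraries per level. The part of the position in this difference was not tested.

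The phosphate difference at 8 h changed its call with a single library. Without replicate 1 at 10 µM and 8 h, the difference of LHY2 was 1.15 with limma's adjusted p of 0.0375, in a fit in which replicate 2 stood alone and was assumed to vary like the other groups. That fit called 352 genes at 8 h, against 0 with all libraries. The remaining library is that at position 0.89, near the 12 h libraries, in which LHY2 was high. The part of this position in the difference was not tested. For LHY1 the difference at 8 h stayed between 0.65 and 0.67 whichever library was left out, and it passed in none of the 20 fits (adjusted p 0.153 to 1). Compared directly, the difference between phosphate levels was larger at 8 h than at 24 h by 1.12 ± 0.26 for LHY1 and 1.38 ± 0.29 for LHY2, with unadjusted p of 0.000615 and 0.000314 and an adjusted p of 0.847 for each in limma. The contrast was 1 of 4 that set 8 h against each other time, chosen after the values were seen, and no gene passed in any of the 4 (0 called, with 693 to 1238 at an unadjusted p under 0.05).

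LHY1 and LHY2 moved closely together. Their log2(FPKM + 1) values correlated over the 20 libraries with Pearson's r = 0.96 and Spearman's rho = 0.94, a description of points that share libraries, and within a level with r = 0.98 at 10 µM and r = 0.94 at 200 µM. Of the 24933 other tested genes, LHY2 had the highest r with LHY1 and LHY1 the highest with LHY2. The next highest r was 0.87 for LHY1 and 0.92 for LHY2. The copies are related by descent, and their sequences were not compared here. The authors' treatment of fragments that match more than 1 gene is not given in the sources used here. Whole fragments were recovered for both genes in every library, as for all tested genes, which leaves no sign of fragments divided between copies. Fragments counted for both copies, or given whole to 1 of them whatever their origin, cannot be told apart.

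LHY2 had the higher FPKM of the copies in 19 of 20 libraries. The mean of the log2 difference, LHY1 minus LHY2, was -0.33 ± 0.22 (SD, n = 20), and an exact two-sided permutation test of its sign gave p = 5.72e-06. Expressed as a ratio of FPKM + 1, LHY2 stood at 1.26 times LHY1. The exception was replicate 1 at 200 µM and 8 h, where LHY2 measured 10.2 FPKM and LHY1 10.9 FPKM. The reference genome is not given in the sources used here. If fragments of the copies matched it unequally, or their gene models were unequally complete, the ratio could be shifted alike in every library. The permutation of the sign cannot show such a shift, and it treats libraries of the same group as independent. Whether the copies differed in transcript abundance apart from such a shift was not tested. No difference in the balance was detected between phosphate levels, with means of -0.34 at 10 µM and -0.32 at 200 µM (p = 0.843, exact permutation of the labels within each time).

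The mean excess of LHY2 was largest at 12 h and 4 h, the times with the highest means of both genes. The ratio of LHY2 to LHY1 averaged 1.56 ± 0.10 at 12 h and 1.38 ± 0.14 at 4 h, against 1.26 ± 0.08 in the 2 h libraries, 1.12 ± 0.20 in the 8 h libraries and 1.12 ± 0.03 in the 24 h libraries (SD, n = 4 each). At 12 h it lay between 1.45 and 1.67 and at 24 h between 1.10 and 1.17. At 4 h it lay between 1.23 and 1.58, which overlapped 2 h (1.14 to 1.33) and 8 h (0.939 to 1.40). At 8 h against 4 h and 12 h the log2 difference, LHY1 minus LHY2, averaged -0.13 against -0.53. An exact two-sided permutation test within levels, chosen after the values were seen, gave p = 0.0133 over 225 arrangements. Leaving out 1 library of these times gave an exact p of 0.0133 to 0.0667, and only without replicate 1 at 10 µM and 8 h was it above 0.05. The ratio at 8 h was the most variable, from 0.939 at 200 µM (replicate 1) to 1.40 at 10 µM (replicate 2).

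**Figure D5:**
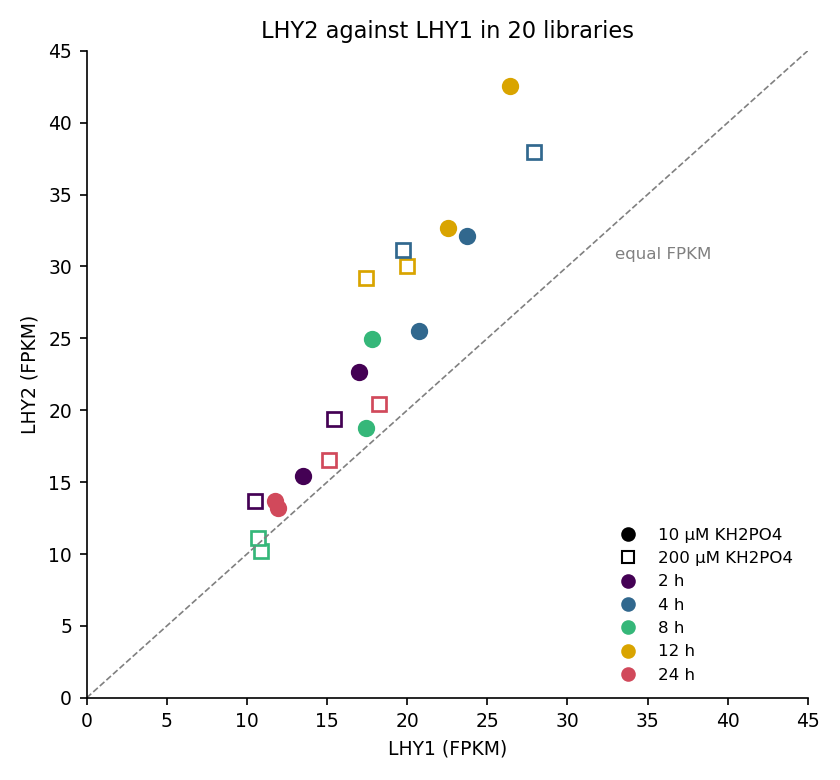
LHY2 (vertical axis, FPKM) against LHY1 (horizontal axis, FPKM) in the 20 libraries; filled circles, 10 µM KH2PO4; open squares, 200 µM KH2PO4; colours, hours after transfer; dashed line, equal FPKM. The libraries at 4 h and 12 h hold the highest LHY2 values, and all but 1 library lie above the line. The mean ratio of LHY2 to LHY1 is highest at 12 h and 4 h, but single libraries at 4 h overlap those at 2 h and 8 h.

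Genes with the most similar and the most opposite course were sought among 1046 genes whose time means differed by at least 1 on the log2 scale. Likeness was r over the 20 libraries with the mean of the centred values of LHY1 and LHY2. Potri.003G141800 was most alike (r = 0.83), with means of 5.25 ± 1.3 FPKM at 2 h, 9.98 ± 2.2 FPKM at 4 h, 4.56 ± 2.2 FPKM at 8 h, 11.7 ± 2.2 FPKM at 12 h and 7.26 ± 2.0 FPKM at 24 h (SD, n = 4 each). Potri.001G031800 followed (r = 0.79), with 4.17 ± 0.49, 8.84 ± 1.5, 5.41 ± 0.96, 11.5 ± 2.2 and 6.85 ± 1.2 FPKM at these times. Both shared the high levels at 4 h and 12 h.

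The most opposite course was that of Potri.005G020300 (r = -0.85), with 17.6 ± 4.2 FPKM at 2 h, 9.73 ± 1.1 FPKM at 4 h, 18.3 ± 7.5 FPKM at 8 h, 7.99 ± 0.67 FPKM at 12 h and 16.8 ± 1.5 FPKM at 24 h (SD, n = 4 each). Potri.019G056000 came next (r = -0.72), with 28.3 ± 3.1, 19.9 ± 3.0, 25.9 ± 13, 13.4 ± 1.4 and 24.1 ± 5.8 FPKM. Potri.019G056000 did not pass limma's F test over the 5 times (adjusted p 0.0611). Its lowest and highest values, 9.04 and 39.8 FPKM, were both at 8 h. These genes were picked for the range of their time means and for their likeness to LHY1 and LHY2, so their courses are descriptions. The table gives no names for these identifiers. Without the limit on the range, 18 other tested genes had r of at least 0.8 and 8 had r of -0.8 or lower.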

How the data were processed

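The deposited values were FPKM for 34699 genes in 20 libraries, computed by the authors, 1 column per library, with 0 further columns of values. Per the submitters' processing notes, HISAT2 2.1.0 and Bowtie2 2.2.3 were used, in roles not stated. No source used here gives the reference genome, the annotation or the FPKM program.

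Fragments were recovered by searching gene lengths of 60 to 20000 bases for whole numbers to within 0.06, which succeeded for all 24934 tested genes (100%). Recovered fragments summed to each library's total to within 39. Intervals on them cover counting error only.

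Genes that reached 1 FPKM in 2 or more libraries were tested as log2(FPKM + 1), a scale that understates changes of low genes. limma 3.58.1 in R 4.3.3 was fitted to all 20 libraries with 1 mean per group and a variance trend. Tests were two-sided, with Benjamini-Hochberg adjustment over all genes and a threshold of 0.05. The fit and the recovery were tested on simulated data.

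Both genes, the lists, the rule for named genes (the 2 highest and 2 lowest r) and the tests were chosen with earlier results of these data known. Lists of clock genes and of tissue markers could not be matched without gene names, so the labelled tissue was not checked. Alternatives covered pseudocount, filters, quantile normalization, voom, a replicate block and libraries left out.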

Additional observations from a re-analysis of the deposited data

Results flagged for a closer look

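The difference between 10 and 200 µM KH2PO4 pointed in opposite directions at 8 and 12 h and at 24 h, 3 times at which the libraries of the levels did not overlap in either gene. They overlapped in both genes at 2 and 4 h. The same separation was found in 14.4% of tested genes at 8 h, 18.8% at 12 h and 21.5% at 24 h. For LHY1 the difference was 0.66 at 8 h, 0.37 at 12 h and -0.46 at 24 h (log2). For LHY2 it was 0.96 at 8 h, 0.32 at 12 h and -0.42 at 24 h. limma's F test for the variation of this difference with time gave a Benjamini-Hochberg adjusted p of 1 for both genes.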

How the results depend on the processing

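The variation of LHY1 and LHY2 with time passed in all 20 fits that left out a library and under the 7 other settings tried (limma, adjusted p 0.00154 to 0.00642 and 0.000204 to 0.00144 under these settings). All values here are log2 differences. Without the filter on low values LHY1 missed the threshold at 8 h against 4 h (-0.69, adjusted p 0.0744) and at 24 h against 12 h (-0.57, 0.0606). Quantile normalization turned LHY1 at 24 h against 2 h to -0.035. Without the libraries at 8 h, LHY2 passed at 4 h against 2 h (0.81, adjusted p 0.0403) and the mean phosphate difference of LHY2 was -0.042. At 10 µM alone, LHY1 differed by -0.32 at 8 h against 4 h, -0.99 at 24 h against 12 h, -0.33 at 24 h against 2 h and 0.13 at 12 h against 4 h, and LHY2 by -0.39 at 8 h against 4 h and 0.76 at 12 h against 8 h. At 200 µM alone, LHY1 differed by -1.06 at 8 h against 4 h and -0.16 at 24 h against 12 h, and LHY2 by -0.66 at 24 h against 12 h, 0.17 at 24 h against 2 h and -0.21 at 12 h against 4 h. The cause of these changes was not tested.

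With 1 library left out, LHY1 and LHY2 ranged over 0.55 to 0.81 and 0.68 to 0.94 at 4 h against 2 h, -0.81 to -0.57 and -1.09 to -0.90 at 8 h against 4 h, and 0.54 to 0.65 and 0.98 to 1.17 at 12 h against 8 h. LHY1 ranged over -0.64 to -0.51 at 24 h against 12 h and -0.12 to 0.14 at 24 h against 2 h. At 12 h against 4 h the ranges were -0.21 to 0.027 and -0.012 to 0.17. The phosphate difference ranged at 2 h over -0.025 to 0.49 and -0.076 to 0.45, at 4 h over -0.32 to 0.16 for LHY1, and at 8 h over 0.76 to 1.15 for LHY2. The phosphate difference of LHY1 minus LHY2 ranged over -0.050 to 0.023.

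Counts of called genes depended more on single libraries. They lay between 2072 and 5188 for the variation with time (3632 with all libraries), 0 and 100 at 4 h against 2 h (12), 0 and 250 at 8 h against 4 h (60), 0 and 1763 at 12 h against 8 h (27), 64 and 1042 at 24 h against 12 h (366), 1412 and 3539 at 24 h against 2 h (3064), and 481 and 2452 at 12 h against 4 h (1791). They lay between 6 and 25 for the mean phosphate difference (11), 0 and 352 for that at 8 h (0) and 0 and 31 for its variation with time (0). Without the filter 16 genes were called at 8 h against 4 h and 10 at 12 h against 8 h. Without the libraries at 8 h the variation with time called 5526 genes, 24 h against 12 h 1032 and the phosphate difference at 12 h 11.

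The replicate numbers did not pair the samples throughout the course. Same-numbered libraries of the phosphate levels deviated together at 2 h, with r = 0.50 over genes. At the other times r lay between -0.24 at 8 h and 0.07 at 4 h. The replicate block changed no call of LHY1 or LHY2 and left their values as they were (1.07 for LHY2 at 12 h against 8 h), and it lowered the count at 12 h against 8 h to 14 genes. The planned edgeR test and voom with TMM factors were not run. In their place voom was run with library totals on the recovered fragments. Counting error was at most 8.99% of a library's value for LHY1 and 8.00% for LHY2.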
